A study of Mus musculus with 2 samples.

Results

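The cells described here are those of the reporter-positive library in which neither the reporter transcript nor the 2-cell (2C) programme reached set limits. A cell had to have at least 10000 UMIs (unique molecular identifiers, read here as counts of captured transcripts), 0 UMIs of GFP, under 0.01% of its UMIs from Zscan4a to Zscan4f, Sp110, Zfp352, Tmem92, AF067061 and the Usp17l, Tdpoz and Tcstv families, and under 0.03% from the endoderm genes Gata6, Sox17, Pdgfra and Dab2. These measured values, from the same counts, chose the cells: they were selected on GFP, 2C and endoderm UMIs. The rule found 476 cells, or 10.8% (exact binomial interval 9.91 to 11.8) of the 4403 positive-library cells with at least 10000 UMIs. The library held 4603 cells in all and the series 8435. In the reporter-negative library 3542 of 3824 cells of that depth, or 92.6% (91.8 to 93.4), met the same limits and serve as the comparison.

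The data are single-cell transcriptomes of a mouse embryonic stem cell line, in 1 reporter-positive and 1 reporter-negative library. Both carry the same constructs, a GFP gene driven by the promoter of the endogenous retrovirus MERVL and a histone H2B fused to the far-red protein mIFP for following cells, and the labels give neither a treatment nor how GFP-positive cells were separated. Each library is labelled as its own batch, so library, batch and group coincide and cannot be told apart, and with 1 library per group no test was possible. The groups are therefore described by values, by a rule of size and by 95% intervals that cover counting error only.

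Mouse embryonic stem cells hold a network of transcription factors, among them Pou5f1, Sox2 and Nanog, that keeps them able to form all tissues of the embryo. A small and changing share of such cultures enters a state in which MERVL and genes normally transcribed in the 2-cell embryo are switched on, and cells leave that state again. Such cultures can also hold cells with genes of extraembryonic endoderm, the lineage of the yolk sac.

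The 476 cells had a median of 32031.5 UMIs (10018 to 75207) and 5811 genes, against 39062.5 UMIs and 5840 genes in the negative-library cells. Their median mitochondrial share was 2.50%, against 1.61%, and their median ribosomal protein share 22.5%, against 25.7%. Of the other positive-library cells, 761 had at least 1 GFP UMI and stayed under the same 2C and endoderm limits (called GFP-transcript cells below), with medians of 34119 UMIs and 2.34% mitochondrial UMIs, and 3003 were at or over the 2C limit, with a median of 28239 UMIs. The libraries shared 3 cell barcodes, of which 1 joined a cell of the rule to a negative-library cell.

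Limits on GFP and 2C genes chose the cells, so low values of those genes are a description. The named rule genes and families together stood at 49.2 CPM (UMIs of a gene per 1000000 UMIs, summed over the cells of a group) in the GFP-zero cells and at 1126 CPM in the cells over the 2C limit. Of the 476 cells, 75 (15.8%) had 0 UMIs of those genes, against 3476 of 3542 (98.1%) in the negative library. No gap in values marked the limit. The 78 cells just inside it, with 0.008 to 0.01% of their UMIs from the rule genes, had 418 CPM of Nanog and 221 CPM of Utf1, and the 102 cells just outside, with 0.01 to 0.0125%, had 443 and 203 CPM. The endoderm limit had 2 cells on either side within 0.02 to 0.045%.

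Transcripts of the 2C state were counted in these cells at a low level, so the cells are called GFP-zero 2C-low here and not silent. The same transcripts were counted in endoderm-rich cells of the same library with 0 GFP UMIs. Their counting intervals overlapped those of the GFP-zero 2C-low cells for most genes. The counts are not read as expression by the GFP-zero 2C-low cells, because their source was not tested. Genes that the rule did not use were taken where they reached at least 100 CPM in the cells over the 2C limit and at least 50 times the negative-library level, which gave 19 genes. Their summed level was 631 CPM in the GFP-zero 2C-low cells, or 7.20% of the 8757 CPM in the cells over the limit. Gene by gene the share had a median of 7.15% and ran from 3.59% (Eif1ad3) to 19.3% (Platr31), with 16 of the 19 genes between 3 and 10%. In GFP-transcript cells the median was 8.82%. In 59 cells with 0 GFP UMIs that were under the 2C limit but over the endoderm limit, the 19 genes summed to 583 CPM, against the 631 CPM of the GFP-zero 2C-low cells. The Poisson intervals of the CPM overlapped between these classes for 17 of the 19 genes. Eif1ad8 was higher in the GFP-zero 2C-low cells, at 54.6 CPM (51.0 to 58.4) against 38.5 (30.5 to 47.9), and Lgals4, a galectin, was lower, at 21.2 against 37.5.

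**Figure D1:**
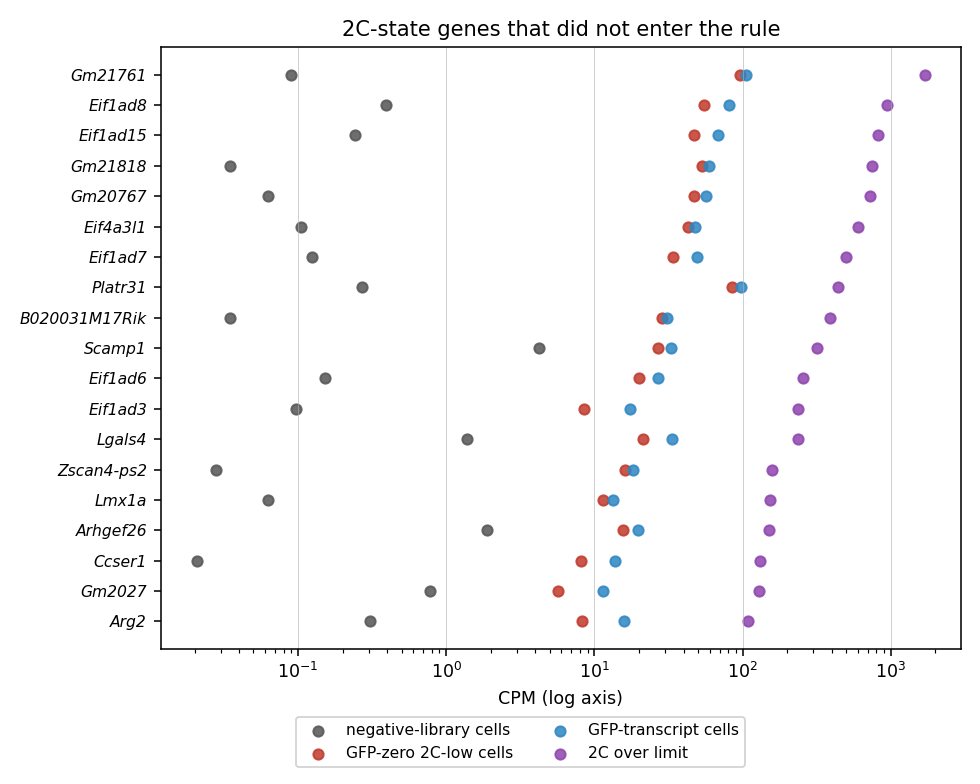
Levels of the 19 genes of the 2C state that the rule did not use, in CPM on a log axis, 1 point per gene and class of cells (negative-library cells, GFP-zero 2C-low cells, GFP-transcript cells, cells over the 2C limit). For most genes the GFP-zero and GFP-transcript points lie side by side, above the negative-library points and below the points of cells over the limit, as for Gm21761 at 0.0901, 95.7, 106 and 1698 CPM.

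Gm21761 (ENSMUSG00000096175), an uncharacterised gene on mm10 chromosome 13 at 119912095 to 119929272 on the minus strand, had the largest log2 ratio of CPM + 1 to the negative library. It had 1488 UMIs in the GFP-zero 2C-low cells, which is 95.7 CPM (90.9 to 101 by the Poisson interval). The negative-library cells had 13, which is 0.0901 CPM. After each cell was thinned at random to 10000 UMIs, 63.4% of the cells (58.9 to 67.8) had a UMI of it, against 0.113% in the negative library, 65.2% of GFP-transcript cells and 83.9% of cells over the limit. Among all 163 cells over the endoderm limit and under the 2C limit, of which 59 had 0 GFP UMIs, the share was 62.0% (54.0 to 69.4) at a median of 33997 UMIs. That class had 98.5 CPM (90.5 to 107) of Gm21761, while its Nanog was at 41.3 CPM and its Zfp42 at 213. Over the 19 genes the level in the 163 cells was 0.792 (B020031M17Rik) to 5.40 (Lgals4) times that in the GFP-zero 2C-low cells, with a median of 1.32, and 15 of the 19 were at or above it. Of these 163 cells 104 had GFP UMIs. In the 59 with 0 GFP UMIs, 54.2% (40.7 to 67.3) had a UMI of Gm21761 after thinning, an interval that overlaps that of the GFP-zero 2C-low cells. Over the 19 genes the shares overlapped for 18, and Gm20767 was the exception, with 42.2% (37.7 to 46.8) of the GFP-zero 2C-low cells against 23.7% (13.6 to 36.6).

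Within the limits of the rule, which caps cells by related 2C genes, the 10 cells with most UMIs of Gm21761 held 6.05% of them, and the variance of thinned UMIs was 0.963 times the mean. Among the GFP-zero 2C-low cells, those with 0 UMIs of the rule genes had 89.4 CPM of Gm21761, those with 1 had 93.4, those with 2 had 96.1 and those with 3 or more had 101. For Gm21761 the intervals of neighbouring classes overlapped. Platr31 had 78.8, 81.2, 88.6 and 89.2 CPM in these classes. Eif1ad8 was less even, at 39.4 CPM (31.5 to 48.7), 51.1 (44.9 to 57.9), 65.2 (58.1 to 73.0) and 54.8 (47.8 to 62.6). What part free RNA had in these counts was not tested.

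Platr31, a noncoding RNA, had 85.1 CPM (80.6 to 89.8) in the GFP-zero 2C-low cells, 0.270 in the negative-library cells and 441 in the cells over the limit. Its level was 130.5 CPM (121 to 140.2) in the endoderm-rich cells and 77.4 in the 59 of them with 0 GFP UMIs. Gm21818, Gm20767 (47.3 CPM) and B020031M17Rik (28.6 CPM) lie with Gm21761 between 119912095 and 120173888 on chromosome 13. Eif1ad8 (54.6 CPM), Eif1ad15 (47.1), Eif1ad7 (34.1) and Eif1ad6 lie between 87514316 and 88324026 on chromosome 12. With Eif4a3l1 (43.1 CPM), named for a helicase of the exon junction complex, and Platr31, these 9 genes were at or below 0.395 CPM in the negative-library cells. Members of the Eif1ad and Zscan4 families are near-identical copies, so the split of UMIs between them is uncertain.

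The given markers Nanog, Tbx3 and Utf1 were then compared, none of which the rule used. Nanog, a core pluripotency factor, and Tbx3, a T-box factor linked to naive pluripotency and extraembryonic endoderm, were higher in the GFP-zero 2C-low cells than in the negative library, and Utf1, a chromatin factor of undifferentiated stem cells, was lower. The same 3 genes differed little from GFP-transcript cells of the same library.

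Nanog (ENSMUSG00000012396, chromosome 6, 122707489 to 122714633, plus strand) had 413 CPM (403 to 423) in the GFP-zero 2C-low cells and 201 CPM (198 to 203) in the negative-library cells, a log2 ratio of CPM + 1 of 1.04. GFP-transcript cells had 506 CPM and cells over the 2C limit 407. After thinning, the cells had a median of 3 Nanog UMIs, with quartiles of 2 and 6, against 2, with quartiles of 0 and 3. The distributions overlapped, and 60.1% of the cells lay above the negative-library median, which 30.8% of the negative-library cells exceeded.

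Tbx3 (ENSMUSG00000018604, chromosome 5, 119670669 to 119684724, plus strand) had 438 CPM (428 to 449) against 242 (239 to 244), a log2 ratio of 0.85, with 527 CPM in GFP-transcript cells and 472 in cells over the limit. Of the cells, 63.9% lay above the negative-library median of 2 thinned UMIs, against 41.0% of the negative-library cells themselves. Utf1 (ENSMUSG00000047751, chromosome 7, 139943789 to 139945112, plus strand) had 234 CPM (226 to 241) against 450 (447 to 454), a log2 ratio of -0.94, and 228 CPM in GFP-transcript cells. Cells over the limit were lower again, at 126 CPM, and the endoderm-rich cells were at 246. Thinned cells had a Utf1 UMI in 73.3% of the GFP-zero 2C-low cells and in 93.2% of the negative-library cells.

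**Figure D2:**
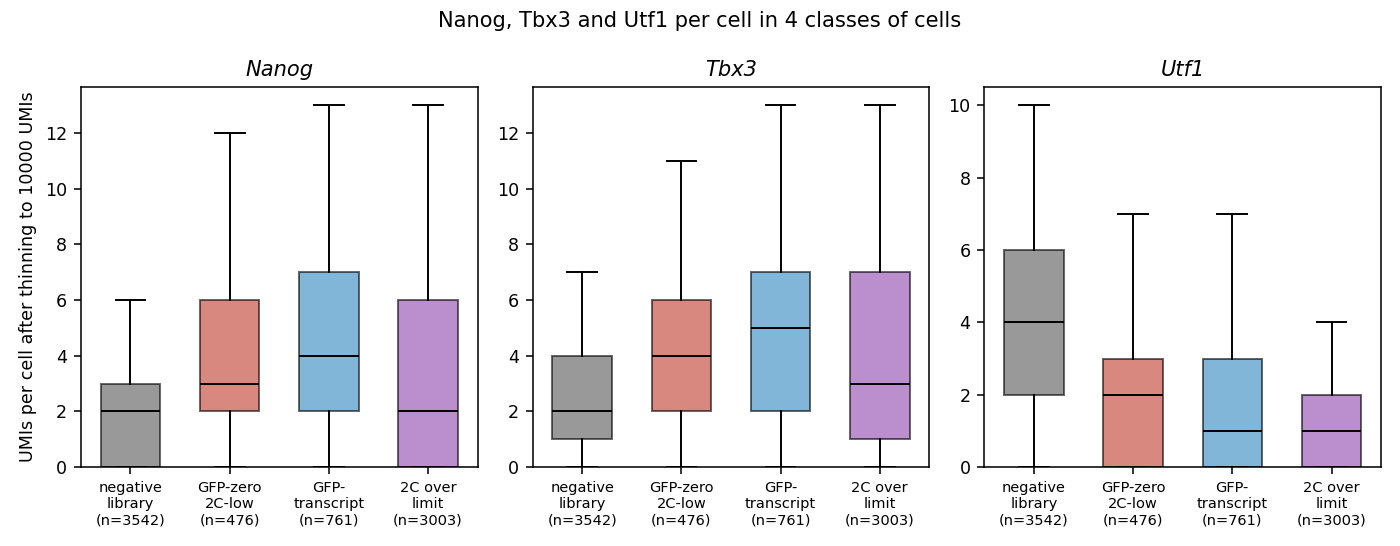
Nanog, Tbx3 and Utf1 UMIs per cell after thinning every cell to 10000 UMIs, in the 3542 negative-library, 476 GFP-zero 2C-low, 761 GFP-transcript and 3003 over-limit cells. Boxes span the quartiles with the median as a line and whiskers reach the 5th and 95th percentiles. The GFP-zero 2C-low boxes for Nanog and Tbx3 lie above those of the negative library, and the box for Utf1 lies below, with overlap in each panel.

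The direction of all 3 genes held in every class of depth. Nanog was at 360, 432 and 379 CPM in GFP-zero 2C-low cells of 10000 to 20000, 20000 to 40000 and over 40000 UMIs, and at 192, 203 and 199 CPM in negative-library cells of those classes. Utf1 was at 175, 214 and 284 CPM, against 361, 429 and 467 CPM. Within the GFP-zero 2C-low cells Utf1 thus stood higher in the deeper classes, as it did in the negative library.

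Over all alternatives the log2 ratio lay between 0.66 and 1.08 for Nanog, between 0.48 and 0.87 for Tbx3 and between -1.32 and -0.76 for Utf1. In the 75 cells with 0 UMIs of the 2C rule genes Nanog stood at 369 CPM and Utf1 at 267. Across the 476 cells thinned UMIs of Nanog and Tbx3 had a Pearson r of 0.38, against 0.18 in the negative library and 0.21 in GFP-transcript cells. Mean thinned Nanog UMIs were 4.22, 2.00 and 5.07 in these groups, and lower counts weaken r through counting error. The r values are a description over cells that share a library and a depth range.

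The other core factors lay close to the negative library. Pou5f1 had 332 CPM (323 to 341) against 390, Sox2 had 647 CPM (634 to 659) against 555, and Zfp42, a zinc finger gene used as a marker of undifferentiated cells, had 1259 CPM (1241 to 1277) against 1295. Transcripts of these stem cell markers were found in most of the cells, with 92.9% of thinned cells holding a Pou5f1 UMI and 97.1% a Zfp42 UMI. Holding a UMI is a weak criterion, since 77.9% of thinned endoderm-rich cells, at 213 CPM, also held a Zfp42 UMI.

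Across all genes, few passed the rule of size between the GFP-zero 2C-low and the negative-library cells, and whether more were higher or lower depended on the scaling. Of 7781 genes with at least 10 CPM in either group and 50 UMIs in total, after the genes of the rule were set aside, 190 (2.44%) were at least 2-fold higher and 14 (0.18%) at least 2-fold lower on the scale of CPM + 1, or 2.62% in either direction. Of the 17 tested 2C genes outside the rule 13 were higher, but 12 of the 17 reached 10 CPM only in the GFP-zero 2C-low cells and so had to differ, and these include the transcripts described above. The median log2 ratio of all 7781 was 0.17. With trimmed-mean (TMM) scaling the median was -0.18, with 90 genes higher and 80 lower, so that 52.9% of the called genes were higher and not 93.1%. All 90 were among the 190 and all 14 lower genes among the 80. Of the 190 higher genes, 65 reached 10 CPM in the negative library as well and the others only in the GFP-zero 2C-low cells. Of the 14 lower genes 4 reached it only in the negative library. For genes that passed through 1 group only, the filter fixed the direction. Median-of-ratios scaling moved the median to -0.21, with 84 higher and 93 lower genes and 47.5% of the called genes higher.

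**Figure D3:**
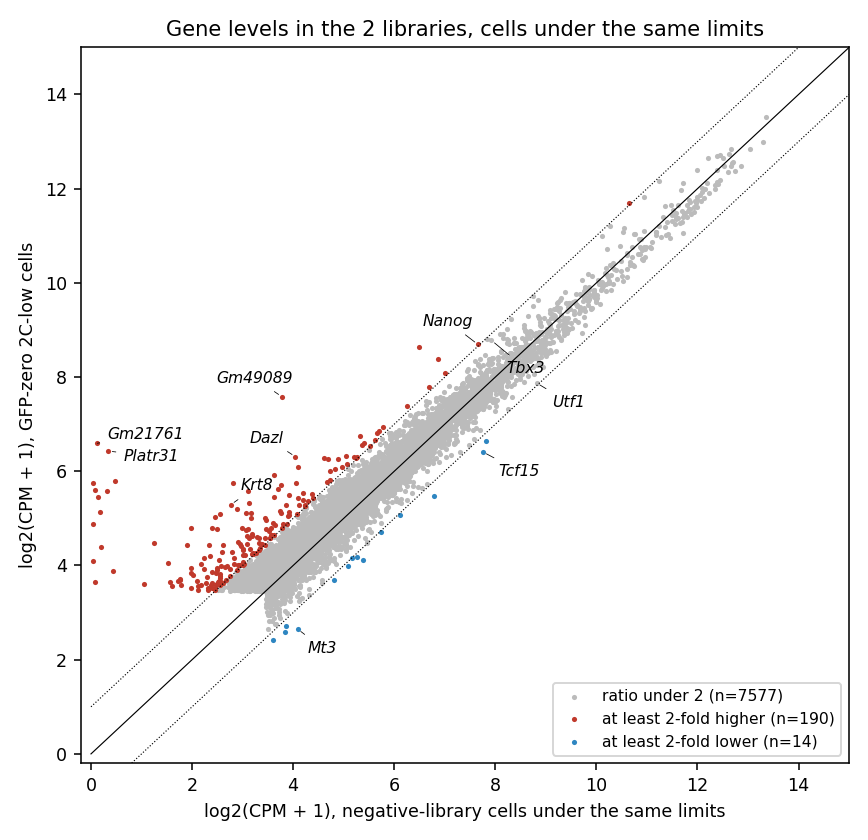
Summed level of each of the 7781 genes in the negative-library cells (x axis) and the GFP-zero 2C-low cells (y axis), as log2 of CPM + 1, with the line of equality and dotted lines at 2-fold. The 190 higher genes are red and the 14 lower genes blue. Gm21761 and Platr31 stand far above the line at a negative-library level near 0, and Nanog lies just above the 2-fold line.

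Pluripotency lists as a whole did not follow Nanog. Of 20 general pluripotency genes, 1 was called higher (Nanog) and none lower, beside 2.44% and 0.18% of all genes, with a median log2 ratio of 0.12 (-0.21 with TMM scaling) beside the 0.17 (-0.18) of all genes. With TMM scaling Nanog was at 0.70 and was not called. Of 19 naive pluripotency genes 3 were higher and none lower, beside 2.44% of all genes called higher, with a median of 0.12 (-0.23 with TMM scaling). The 3 were Dppa3 (33.8 against 8.03 CPM), a maternal factor that protects DNA methylation, Fbxo15 (332 against 116), a target of Pou5f1 and Sox2, and Prdm14 (10.2 against 4.46), a repressor of the primed state. Fbxo15 is also in the list of 2C genes outside the rule and was counted there as higher. It stood at 548 CPM in the endoderm-rich cells. Dppa3 and Prdm14 reached 10 CPM only in the GFP-zero 2C-low cells, and Prdm14 was not called with TMM scaling (0.74). Dppa3 was unevenly spread, with 41.4% of its 526 UMIs in 10 cells. Klf2 (547 against 542) and Esrrb (53.2 against 55.0), factors of the naive network, were close to their negative-library levels.

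Genes linked to leaving the naive state did not move as a group. Of 11 primed genes tested, none was higher and 2 were lower, beside 0.18% of all genes, and 6 of the 11 lay above 0, with a median of 0.07. Of the 11, 2 reached 10 CPM only in the GFP-zero 2C-low cells, so the filter fixed their direction above 0. With TMM scaling 3 of the 11 lay above 0 and the median was -0.25. Tcf15, a factor that primes stem cells for differentiation, had 84.0 CPM (79.5 to 88.7) against 215 (213 to 217), a log2 ratio of -1.35. Lef1, a mediator of Wnt signalling, had 4.37 CPM against 11.1 and passed the filter only through the negative library. Fgf5 and T, which mark cells that have left the naive state, had 13 and 2 UMIs. The other 12 genes called lower included Mt3, a metallothionein (a log2 ratio of -1.44), Rasgrp2, an activator of Rap proteins (43.7 against 109), and Mymx, a fusion protein of myoblasts (98.5 against 226). Smagp, Rpl15-ps2, H2ac10, Ina, Irf2bp2, Bvht and 2010204K13Rik were lower by log2 ratios of -1.26 to -1.04. Rpl15-ps2 and H2ac10 have near-identical copies and are uncertain.

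Some germline genes were higher. Of 14 tested, 6 were higher and none lower, with a median of 0.81 (0.48 with TMM scaling), beside 2.44% of all genes called higher. Of the 14, 5 reached 10 CPM only in the GFP-zero 2C-low cells, 4 of the 6 called genes among them, and with TMM scaling Stk31 (0.84) was not called. Dazl, an RNA-binding protein of germ cells, had 78.4 CPM (74.0 to 82.9) against 15.5 (14.9 to 16.1) and was found in 41.2% of thinned cells against 13.7%. Asz1 (11.3 against 1.07 CPM) and Sycp1 (11.7 against 2.31), with roles in piRNA formation and in the meiotic synaptonemal complex, were called too, as were Slc25a31, Taf7l and Stk31. Ddx4, a helicase of germ cells, was close to its negative-library level, with a UMI in 9.24% of thinned cells against 9.03%. Dazl stood at 84.9 CPM in GFP-transcript cells and at 17.7 CPM in the endoderm-rich cells.

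Gm49089, an unclassified transcript on chromosome 15, had 191 CPM (184 to 198) against 12.7. It was uneven among the cells. A UMI was found in 42.9% of thinned cells, against 7.34% of negative-library cells, the variance was 13.0 times the mean, and 10 cells held 26.7% of its UMIs. Its level was 156 CPM in GFP-transcript cells and 106 CPM in cells over the 2C limit, below that of the GFP-zero 2C-low cells, but 245 CPM in the endoderm-rich cells.

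Some extracellular matrix genes of extraembryonic endoderm were higher although the rule capped 4 endoderm genes. Of 13 endoderm genes outside the rule, 6 were higher and none lower, with a median of 0.76 (0.42 with TMM scaling), beside 2.44% of all genes called higher. Of the 6, Krt8, Krt18 and Col4a2 reached 10 CPM only in the GFP-zero 2C-low cells. With TMM or median-of-ratios scaling 4 of the 6 calls were kept, and Sparc (0.78 with TMM) and Lamb1 (0.90) were not. Sparc had 165 CPM (159 to 172) against 75.2, Col4a1 44.0 against 14.1, Col4a2 18.6 against 5.04 and Lamb1 28.2 against 11.5, and all 4 encode secreted matrix proteins or proteins bound to it. GFP-transcript cells of the same library were close to the GFP-zero 2C-low cells, at 145.5 CPM of Sparc and 42.6 of Col4a1. Cells over the endoderm limit had 1365 CPM of Sparc and 760 of Col4a1. The transcription factors of the list were at or near 0, with 13 UMIs of Gata4, 8 of Sox7 and 5 of Foxa2 over all 476 cells. The other 2 higher genes, Krt8 and Krt18, came from few cells and are described below. The 4 capped genes had 19.7 CPM against 8.72, and 285 cells (59.9%) had none of their UMIs, against 74.3% in the negative library. The part of endoderm-like cells or their free RNA was not tested.

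Markers of cell types that a stem cell culture could hold were sparse. Of 16 fibroblast genes 2 could be tested and none was called. Dcn, Postn and Acta2 had 0 UMIs (Poisson interval up to 0.237 CPM), Col3a1, Lum and Prrx1 had 1 UMI each, and Col1a1 had 40, or 2.57 CPM. The summed fibroblast list was at 469 CPM against 389, led by Fn1 and Vim, which stem cells also express, and held 0 to 28 UMIs per thinned cell against 0 to 18 in the negative library, with a median of 4 in both. Of 19 trophoblast genes 5 could be tested and 1, Rhox6, was higher, beside 2.44% of all genes. Rhox6 reached 10 CPM only in the GFP-zero 2C-low cells, with 131 of its 183 UMIs in 1 cell. Tpbpa and Prl3d1 had 0 UMIs and Cdx2 had 9. The trophoblast sum was 234 CPM against 157 and reached 114 UMIs in 1 thinned cell, with a median of 1, against 159 and 1 in the negative library.

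Genes of energy metabolism and translation gave no calls. None of 12 mitochondrially encoded genes, 50 nuclear genes of oxidative phosphorylation or 84 ribosomal protein genes reached 2-fold, beside 2.62% of all genes in either direction, so lists of this size could hold few or no calls at that rate. The mitochondrially encoded genes had a median of 0.43, led by mt-Nd1 (4555 against 2429 CPM) and mt-Nd2 (3643 against 1954), both subunits of complex I. Nuclear oxidative phosphorylation genes had a median of -0.21, with 39 of 50 below 0, and ribosomal protein genes a median of -0.22, with 71 of 84 below 0. With TMM scaling these medians were 0.09, -0.55 and -0.56, so the order of the lists did not change.

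Of 3 metallothioneins, which bind metals, 1 was called lower, Mt3, beside 0.18% of all genes, and it reached 10 CPM only in the negative library. Mt1 had 296 CPM against 493 and Mt2 196 against 292, both under 2-fold. Mt1 was among the most uneven genes of the cells, with a variance of 27.8 times the mean. Of 22 p53 targets tested, 1 was higher, beside 2.44% of all genes, and the median was 0.42 (0.10 with TMM scaling). It was Pmaip1, which promotes apoptosis (17.6 against 7.21 CPM). Pmaip1 reached 10 CPM only in the GFP-zero 2C-low cells, as did 4 other tested genes of the list, and was not called with TMM scaling (0.86). Ccng1 had 134 CPM against 73.6 and Mdm2, the ligase that degrades p53, 116 against 70.9, both under 2-fold.

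Cell cycle and chromatin lists gave few calls. None of 35 S phase genes (median -0.02) or 40 G2/M genes (median 0.28) was called, beside 2.62% of all genes in either direction. With TMM scaling the S phase median was -0.36 and the G2/M median turned to -0.06. Of 27 genes that restrain or regulate the 2C state, 1 was higher, beside 2.44% of all genes. Nelfa had 100.1 CPM against 47.8 and stood at 723 CPM in the cells over the 2C limit. It was not called with TMM (0.71) or median-of-ratios scaling (0.68). Trim28, a corepressor that silences retroviruses, had 626 CPM against 397. Setdb1 (57.5 against 50.9 CPM) and Kdm1a (321 against 328), both silencing enzymes, differed less. The median of that list, 0.17, turned to -0.16 with TMM scaling.

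Among signalling lists, Id2, a target of BMP, was called higher (79.5 against 32.0 CPM, but 0.95 with TMM scaling and then not called) of 18 BMP and LIF genes, and Lef1 lower of 8 Wnt genes, beside 2.44% higher and 0.18% lower of all genes. No gene of the FGF and ERK list (17 tested) or of the Nodal list (8 tested) was called. Of 16 imprinted genes tested, Plagl1 (17.4 against 4.09 CPM) and H19 (26.4 against 4.59) were higher, beside 2.44% of all genes. Both reached 10 CPM only in the GFP-zero 2C-low cells, and 301 of the 411 H19 UMIs were in the 10 keratin-rich cells described below. None of 11 basement membrane and adhesion genes was called, though all 11 were above 0, with a median of 0.44 (0.10 with TMM scaling).

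**Figure D4:**
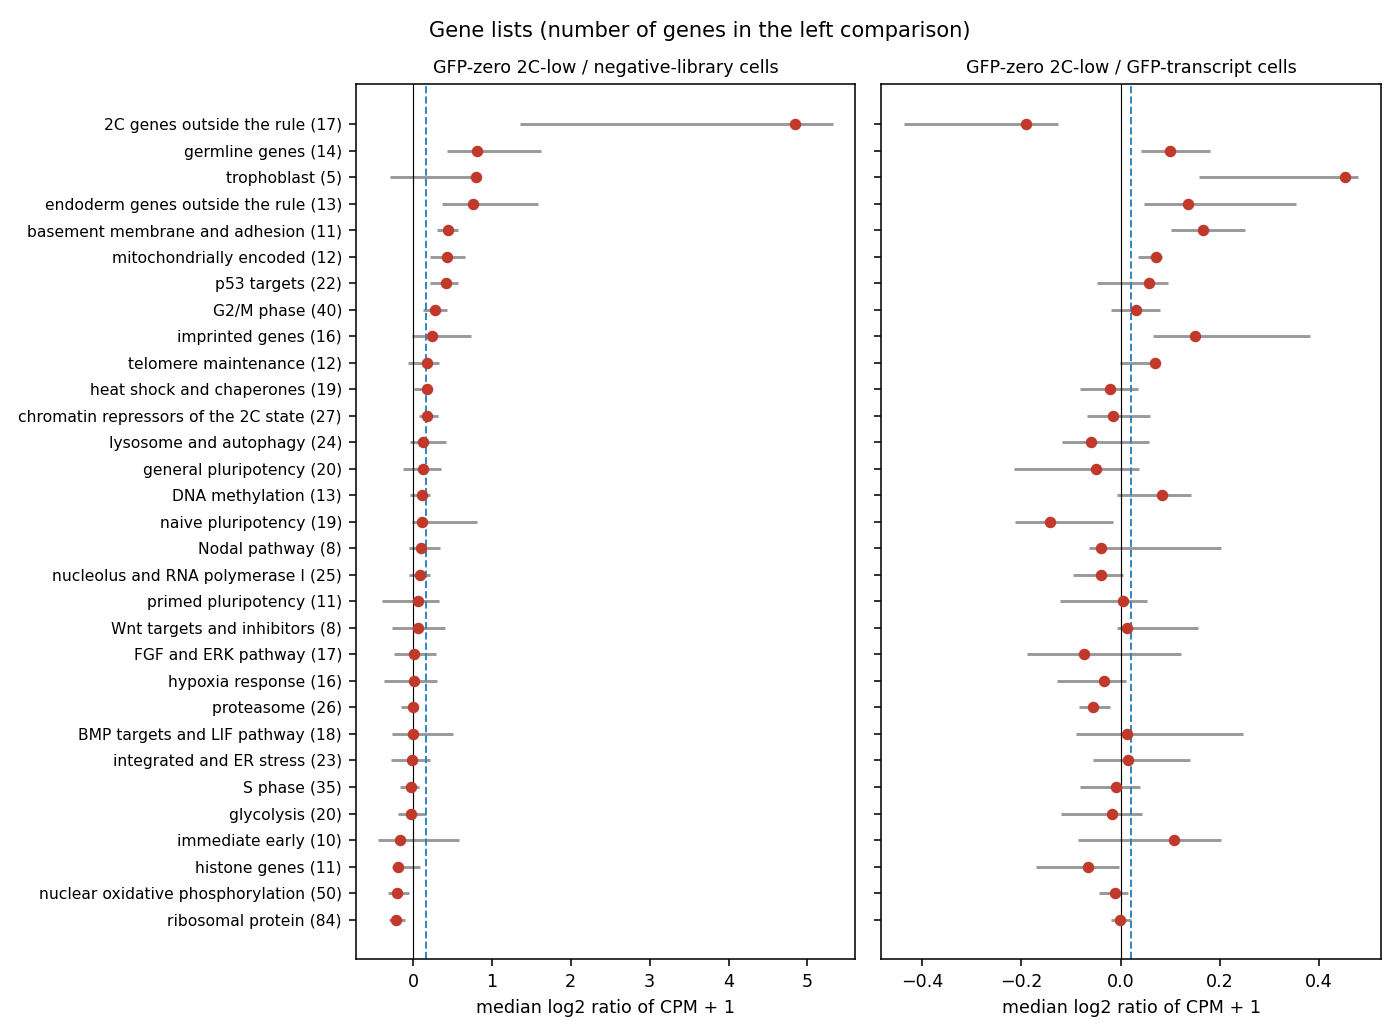
Median log2 ratio of CPM + 1 for each gene list with at least 5 tested genes, in the comparison with negative-library cells (left) and with GFP-transcript cells (right), with different x axes. Points are medians over genes, bars span the quartiles over genes, the solid line is 0 and the dashed line the median of all tested genes (0.17 and 0.02). The 2C genes outside the rule lie at 4.84 on the left, a position set by the filter for the 12 of 17 that passed it only in the GFP-zero 2C-low cells, and most medians on the right lie close to 0.

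The comparison inside the positive library does not involve the batch. It sets the 476 cells against the 761 GFP-transcript cells, which met the same 2C and endoderm limits and differed by rule only in having a GFP UMI. Hardly any gene separated them. Of 7764 genes tested, 4 (0.0515%) were at least 2-fold higher in the GFP-zero 2C-low cells and 1 (0.0129%) at least 2-fold lower, 0.0644% in all, and the median log2 ratio was 0.02. The comparison shares the 476 cells with the comparison between libraries, so the values are given side by side only.

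The 1 lower gene was Marveld1, a membrane protein with a MARVEL domain, at 8.17 CPM (6.81 to 9.72) against 19.6 in GFP-transcript cells, 1.88 in negative-library cells and 42.9 in cells over the 2C limit. It was found in 6.93% of thinned GFP-zero 2C-low cells, against 1.64% in the negative library and 5.52% of the endoderm-rich cells. Nanog and Tbx3 were lower than in GFP-transcript cells by less than 2-fold, with log2 ratios of -0.29 and -0.27 (ranges over the alternatives -0.41 to -0.23 and -0.32 to -0.23), and Utf1 was at 0.03, with a range of -0.16 to 0.42 that crosses 0. In GFP-transcript cells with 1, 2 to 3, 4 to 9 and 10 or more GFP UMIs, Nanog was at 467, 483, 559 and 541 CPM, so the 413 CPM of the GFP-zero 2C-low cells lay below all 4 classes.

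Of 19 tested 2C genes outside the rule none was called, beside 0.0644% of all genes in either direction, and the median was -0.19. At that rate lists of this size could hold no call. Eif1ad3 was closest to a call, at 8.55 CPM against 17.5, and Eif1ad8 had 54.6 against 81.1, whereas Gm21761 had 95.7 against 106. Fbxo15 had 332 CPM against 460 and Trim28 626 against 783. Over GFP-transcript cells with 1, 2 to 3, 4 to 9 and 10 or more GFP UMIs, Eif1ad8 was at 48.1, 76.5, 99.3 and 144 CPM. Gm21761 was at 106, 99.5, 102 and 129 CPM in the same classes. Of the naive pluripotency genes (18 tested) none was called, with a median of -0.14, and of the general pluripotency genes (20 tested) none, with a median of -0.05, again beside 0.0644% of all genes. The germline median was 0.10, and the ribosomal protein and mitochondrially encoded medians were -0.0015 and 0.07, against -0.22 and 0.43 in the comparison between libraries.

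The 4 genes higher than in GFP-transcript cells were Krt8 and Krt18, the keratin pair of simple epithelia, H19, an imprinted noncoding RNA of extraembryonic tissue, and Rhox6, a homeobox gene of placenta and germline. Krt8 had 38.2 CPM (35.2 to 41.4) against 14.5, Krt18 46.5 (43.2 to 50.1) against 20.8, H19 26.4 (23.9 to 29.1) against 9.04 and Rhox6 11.8 (10.1 to 13.6) against 2.90. These levels came from few cells. The 10 cells with most UMIs of each gene held 81.8% of the Krt8, 80.4% of the Krt18, 79.6% of the H19 and 82.5% of the Rhox6 UMIs, and 131 of the 183 Rhox6 UMIs were in 1 cell. Among cells with 0 UMIs of the 2C rule genes (75 and 83), the log2 ratios of Krt8, Krt18 and Rhox6 reversed to -2.78, -2.25 and -0.59.

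Cells with at least 10 UMIs of Krt8 and Krt18 together, a division made after their values were seen, numbered 10 of 476 (2.10%, 1.01 to 3.83) in the GFP-zero 2C-low cells, 6 of 761 (0.788%, 0.290 to 1.71) in GFP-transcript cells and 5 of 3542 (0.141%, 0.0459 to 0.329) in the negative-library cells. The intervals of the first pair overlap. The 10 cells had a median of 29147 UMIs and differed in their pluripotency genes, with 6 UMIs of Nanog (the other 466 cells had 421 CPM), and 140 against 656 CPM of Sox2 and 173 against 1280 of Zfp42. Other pluripotency genes differed less, with 307 against 441 CPM of Tbx3, 147 against 235 of Utf1 and 167 against 335 of Pou5f1. In single cells Zfp42 ran from 64.8 to 278 CPM in these 10, from 73.4 to 207 CPM in the 6 GFP-transcript cells, and from 68.8 to 3085 CPM in the 5 negative-library cells, so a low Zfp42 level was not shared by all keratin-rich cells. In the 10 cells Krt8 stood at 1613 CPM against 7.21 and H19 at 1003 against 7.21. Tfap2c, a factor of trophoblast and germ cells, was at 293 CPM against 28.5 and Krt7 at 73.3 against 1.18. Gata3, Krt19 and Elf3 were higher too, at 30.0, 56.7 and 157 CPM against 5.38, 2.43 and 28.9. Cdx2, a defining trophoblast factor, was at 6.67 CPM against 0.459, but on 2 UMIs. With so few UMIs of Cdx2 these cells are given no cell type name.

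**Figure D5:**
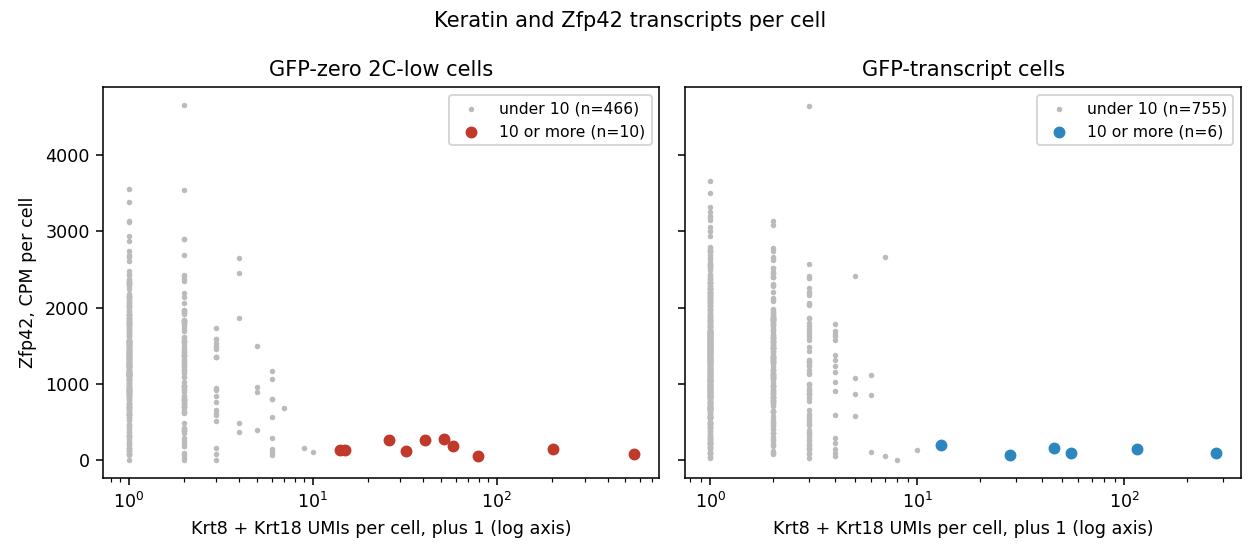
Zfp42 level of each cell in CPM (y axis) against its summed Krt8 and Krt18 UMIs plus 1 on a log axis (x axis), for the 476 GFP-zero 2C-low cells (left) and the 761 GFP-transcript cells (right). The 10 and 6 cells with at least 10 keratin UMIs, drawn larger, all lie near the bottom of the range of Zfp42.

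Without those cells in either group, Krt8, Krt18, Rhox6 and H19 had log2 ratios of -0.051, 0.16, -0.10 and 0.24 and none was called. For Krt8 and Krt18 this follows from how the cells were chosen and is no test. Marveld1, which played no part in that choice, was called at -1.23. Nanog against the negative library was little moved by leaving them out, at 1.06.

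Over 7713 genes the median ratio of variance to mean of thinned UMIs among the 476 cells was 1.08, against 1.05 in the negative library. At low counts this ratio is held near 1 by counting, so it does not show how much most genes varied. The highest ratios were those of Krt18 (69.0), Phlda2 (68.2), Rhox6 (51.3), Krt8 (44.7), Malat1 (40.6) and Mt1 (27.8). The ranking is not adjusted for the mean, with which the ratio can grow, and which was 71.6 thinned UMIs for Malat1 and 0.168 for Rhox6. Phlda2, an imprinted gene of placental growth, had 162 CPM against 205 in the negative library, where its ratio was 3.16. For the 3 markers, whose means differ between the libraries, the variance beyond counting is given relative to the squared mean. It was 0.537 for Nanog and 0.538 in the negative library, 0.490 against 0.386 for Tbx3, and 0.550 against 0.305 for Utf1. These values have no test, since the cells of a group come from 1 library.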

How the data were processed

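Single-cell transcriptomes of 2 libraries were used, 1 per group. The values are raw counts, deposited by the authors as 1 sparse matrix per library with 55415 features, and are read here as UMIs. FastQC 0.11.2, Trim Galore 0.6.4, STAR 2.7.6a and the mm10 build are named per the submitters' processing notes. Cell calling, annotation release and single-cell capture are not given in the sources used here, and the labels' extraction protocol is that of a bulk RNA kit. Free RNA and multi-mapping of near-identical copies can change single values.

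Cells were kept by the rule given in the text. UMIs were summed per group and scaled to CPM over all genes, and log2 ratios use CPM + 1. Genes needed at least 10 CPM in either group and 50 UMIs over both, and were called from a ratio of 2. The 28 2C and 4 endoderm genes of the rule and GFP were left out. Shares, quartiles and variances used cells thinned without replacement to 10000 UMIs (seed 11). Levels have exact Poisson, shares exact binomial (Clopper-Pearson) and ratios exact conditional intervals at 95%. No doublet caller was used, so doublets remain. Ribosomal protein genes were those with symbols starting Rpl or Rps, without pseudogenes and S6 kinases. Positions came from GENCODE M21, which matched 52133 of 55415 identifiers.

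Named genes are Nanog, Tbx3 and Utf1, members of the gene lists, and the 12 (between libraries) or 8 (within the library) largest log2 ratios in each direction among called genes whose direction held with each scaling. Other named genes and the endoderm-rich cells were picked with values in view. The cells, lists and tests were chosen with earlier results of these data known. Alternatives changed scaling (TMM from edgeR 4.0.16, median of ratios, CPM without mitochondrial and ribosomal protein genes, averages of single-cell CPM), and then the pseudocount, thresholds, thinning or the cells kept. Tested on simulated data of 55415 features, the rule recovered 100% of the genes changed 3-fold and 4-fold in both comparisons, with 0% of unchanged genes called. The simulation had Poisson counts only, with no library effect, and changed genes above the 10 CPM minimum by more than the cutoff of 2. It checks the calculation and gives no error rate for the real libraries. R 4.3.3, matplotlib 3.10.9, pandas 2.3.3, scipy 1.17.1, numpy 2.4.6 and Python 3.11.15 were used.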

Additional observations from a re-analysis of the deposited data

How the results depend on the processing

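With 1 library per group no replicate can be left out, and counting intervals do not cover the spread between libraries. No paired analysis was possible because the groups share no numbered samples. The counts of called genes depended on the scaling and thresholds. Against the negative library (190 higher, 14 lower), there were 90 higher and 80 lower genes with TMM, 84 and 93 with median of ratios, 67 and 3 with a pseudocount of 10, 829 and 119 at a ratio of 1.5, and 35 and 0 at a ratio of 4. Higher genes numbered 504 with at least 1 CPM and 580 with no filter on low values. Lower genes numbered 22 with CPM outside ribosomal protein and mitochondrial genes, 22 after thinning, 29 in cells with 0 UMIs of the 2C rule genes and 24 in cells in the lower part of G2/M-list UMIs.

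Against GFP-transcript cells (4 higher, 1 lower), there were 0 and 0 with a pseudocount of 10 or a ratio of 4, 16 and 14 at a ratio of 1.5, 14 and 8 with at least 1 CPM, 16 and 8 with no filter, 10 and 2 after thinning, and 16 and 8 in cells with 0 UMIs of the 2C rule genes, where 75 and 83 cells were compared and 0 of the calls were shared. Lower genes numbered 2 with median of ratios, with CPM outside ribosomal protein and mitochondrial genes, with a pseudocount of 0.1, with at least 20000 UMIs per cell and with an endoderm limit of 0.01%, and 4 in cells in the upper part of G2/M-list UMIs. Without the cells with at least 10 keratin UMIs, an alternative chosen after seeing the data, 0 were higher, and Rhox6 and Krt8 reversed to -0.10 and -0.051. In cells with 0 UMIs of the 2C rule genes Rhox6, Krt8 and Krt18 reversed to -0.59, -2.78 and -2.25.

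Of 32 list medians against the negative library, 15 turned from above to below 0 with TMM and 15 with median of ratios. In 4 of these the interval of the median with CPM lay above 0: the 2C regulators (-0.16 and -0.19), G2/M (-0.060 and -0.091), heat shock and chaperones (-0.17 and -0.20) and nucleolus (-0.25 and -0.29), each of which moved about as far as the median of all genes. Against GFP-transcript cells 5 of 31 medians did so with either scaling, G2/M (-0.011 and -0.017) with its interval with CPM above 0. The cause of the other changes was not tested. The share of cells under the rule moved from 10.8% to 17.8% with GFP counted after thinning, 1.70% with 0 UMIs of the 2C rule genes, 15.9% with a 2C limit of 0.02% and 12.2% with no endoderm limit. The negative-library share moved from 92.6% to 93.6%, 90.9% and 98.3% in the first, second and last of these. Named-gene log2 ratios against the negative library kept their direction in all alternatives run, 349 within and 83 outside their counting interval.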

Other observations

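Some genes of the X chromosome were called higher in the GFP-zero 2C-low cells than in the negative-library cells. Of 262 tested X-linked genes 22 were at least 2-fold higher, or 8.40%, against 2.44% of all genes, and 1, 2010204K13Rik, was at least 2-fold lower. With TMM scaling the counts were 13 (4.96%, against 1.25% of all genes) and with median of ratios 12 (4.58%, against 1.17%). Of the 22 genes 16 reached 10 CPM only in the GFP-zero 2C-low cells, as did all but 65 of the 190 higher genes in all. The chromosome was singled out after its value was seen, and no test was run. The genes with the largest ratios were 1700013H16Rik (52.5 against 5.97 CPM), Scml2, a Polycomb-related gene of the germline (31.4 against 4.50), Usp26, a deubiquitinase of the testis (33.0 against 4.88), and Fthl17c, a ferritin-like gene (59.9 against 11.2). Klhl13 had 67.6 CPM against 16.1. Taf7l and Rhox6 are X-linked as well. GFP-transcript cells had 40.0 CPM of 1700013H16Rik, 27.5 of Scml2, 34.1 of Usp26, 57.7 of Fthl17c and 46.3 of Klhl13. Rhox6 differed most from them, at 11.8 against 2.90 CPM, with 131 of its 183 UMIs in 1 cell.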
